A study of Drosophila melanogaster with 42 samples.

Results

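The nuclear genes of the mitochondrial respiratory chain were read across 42 RNA-seq libraries of wing imaginal discs from third-instar Drosophila melanogaster larvae. Members were taken by symbol, as every gene whose name begins with ND-, UQCR-, COX and a digit, Sdh or ATPsyn. The rule found 81 of the 17208 genes in the count table, of which 40 belong to complex I, 7 to complex II, 8 to complex III, 11 to complex IV and 15 to complex V. The rule uses symbols alone and no measured value, but it was set with earlier results of these data known.

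The respiratory chain passes electrons from NADH, through complex I, or from succinate, through complex II, by way of complex III and cytochrome c to oxygen at complex IV. The proton gradient built on the way drives complex V, the ATP synthase. Most subunits are encoded in the nucleus, and a smaller set, not analysed here, lies in the mitochondrial genome. Fat is a giant cadherin that restrains growth through the Hippo pathway and orients planar cell polarity in the wing disc. In fly, a cleaved piece of its intracellular domain is known to enter mitochondria and to bind the complex I subunit ND-24.

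The series compares wild-type discs with fat mutants and was made to ask which regions of the Fat intracellular domain act in Hippo signalling and in planar cell polarity. On the NovaSeq X Plus, the labels give wild type (2 libraries), Fd5-5 (2), delta HpoC (5, written HpoC here), delta HpoN+PH (4, HpoN+PH), delta PCP (5, PCP) and delta D (3). On the NovaSeq 6000 they give a separate wild type (3) and delta A (4), delta B (4), delta C (3), delta E (4) and delta F (3), which with delta D are mutants of the conserved regions. Library names give the wild-type stock as w1118.csvd111. The series names fat null mutants, and no label says which genotype is one. Sex, larval number per library and dissection date are not given in the sources used here, and nothing says that the replicates of a group came from separate cultures, so p-values measure the spread between these libraries. Each mutant was set against the wild type of its own sequencer, so the 5 comparisons on a sequencer share their wild-type libraries.

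Libraries held 19538208 to 48392354 counts. They fell into 2 classes by the share of counts on 46 ribosomal RNA genes, which was 5.11% to 17.4% in 21 libraries and 0.792% to 1.68% in the other 21. The high class held every library of delta A, delta C, delta F and the X Plus wild type. The low class held every library of Fd5-5, delta D and the 6000 wild type. The remaining labels were mixed, with PCP 1 to 4, HpoN+PH 2 to 4, HpoC 1 and 2, delta E 1 to 3 and delta B 4 in the low class and their other libraries in the high class. Markers of wing disc epithelium were present in every library, at a summed level of 1814 to 4029 CPM (counts scaled to library size). The summed level of 9 differentiated muscle genes was 841 to 1506 CPM for the X Plus wild type, 429 to 702 in delta A and at most 626 in any other library. Fat body markers reached 15476 CPM in delta A, 14262 in PCP, 11046 in HpoC and 11043 in Fd5-5. In bulk discs, fewer cells of a type and less RNA per cell cannot be told apart. The fat transcript itself was at 219.7 to 767 CPM in all libraries, and this level does not check the deletion of a domain.

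Of the 81 genes, 62 had a median count over 100, namely 33 of complex I, 5 of complex II, 6 of complex III, 7 of complex IV and 11 of complex V. Their lowest count in any library was 66. Per kilobase of longest transcript, the highest mean levels were those of ATPsynC, which forms the rotating c-ring of the ATP synthase, at 1712 CPM per kilobase, and of ATPsynbeta, its catalytic subunit, at 574.5. In complex IV, COX7A stood at 375 and COX5A at 256 CPM per kilobase. In complex III, the core protein UQCR-C1 stood at 208 and the small subunit UQCR-Q at 168. In complex I, the acyl carrier protein ND-ACP stood at 165 and ND-39 at 119, and in complex II the iron-sulfur subunit SdhB stood at 126 and the flavoprotein SdhA at 109. Of the members tested on at least 1 sequencer, the lowest per kilobase were ND-49L at 0.0863 and ND-51L2 at 0.103 in complex I, SdhBL at 0.0770 and the assembly factor Sdhaf3 at 13.2 in complex II, UQCR-6.4 at 26.4 and UQCR-14 at 109 in complex III, COX4L at 0.174 and COX7C at 72.3 in complex IV, and ATPsynepsilonL at 3.67 and ATPsyndelta at 53.7 in complex V.

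The other 19 genes had low counts in these discs, near or below detection for all but ATPsynepsilonL. Most carry the suffix L of a duplicated, "like" gene. ATPsynepsilonL had 10 to 215 counts and ND-51L1 had 0 to 40. ND-20L had 3 to 39 counts, ATPsynbetaL 0 to 25, ND-51L2 and ND-49L 0 to 18, COX4L 0 to 17, SdhBL 0 to 16, COX7AL 0 to 14, UQCR-11L 0 to 8 and COX5BL 0 to 7. ND-B8, ND-24L, SdhAL, UQCR-14L, ND-B14.5AL, COX6AL, ATPsynGL and ATPsynCF6L never had more than 4 counts. After the filter on low counts, 69 members were tested on the X Plus and 67 on the 6000.

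The summed level of the 81 genes split with the ribosomal RNA class. It was 11356 to 19819 CPM in the high-class libraries, with a median of 15079, and 5371 to 9439 CPM in the low-class libraries, with a median of 6931. The ranges did not overlap. By group, the sum was 13511 ± 733 CPM (SD, n = 2) in the X Plus wild type and 6921 ± 643 (n = 3) in the 6000 wild type. It was 6780 ± 77.3 (n = 2) in Fd5-5, 5786 ± 705 (n = 3) in delta D, 13576 ± 1536 (n = 4) in delta A, 18387 ± 1250 (n = 3) in delta C and 15696 ± 539 (n = 3) in delta F. The mixed labels had wide spreads, with 12318 ± 5216 (n = 5) in HpoC, 9694 ± 4322 (n = 4) in HpoN+PH, 9085 ± 3050 (n = 5) in PCP, 12510 ± 3178 (n = 4) in delta B and 9251 ± 4290 (n = 4) in delta E. Within those labels the classes stood apart as well. HpoC had 6245 and 7044 CPM in its low-class libraries against 15369 to 16905 in its high-class ones. In delta E the low-class libraries held 6931 to 7274 CPM and the high-class one 15683, and in delta B the high-class libraries held 13477 to 14489 and the low-class one 7788.

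**Figure D1:**
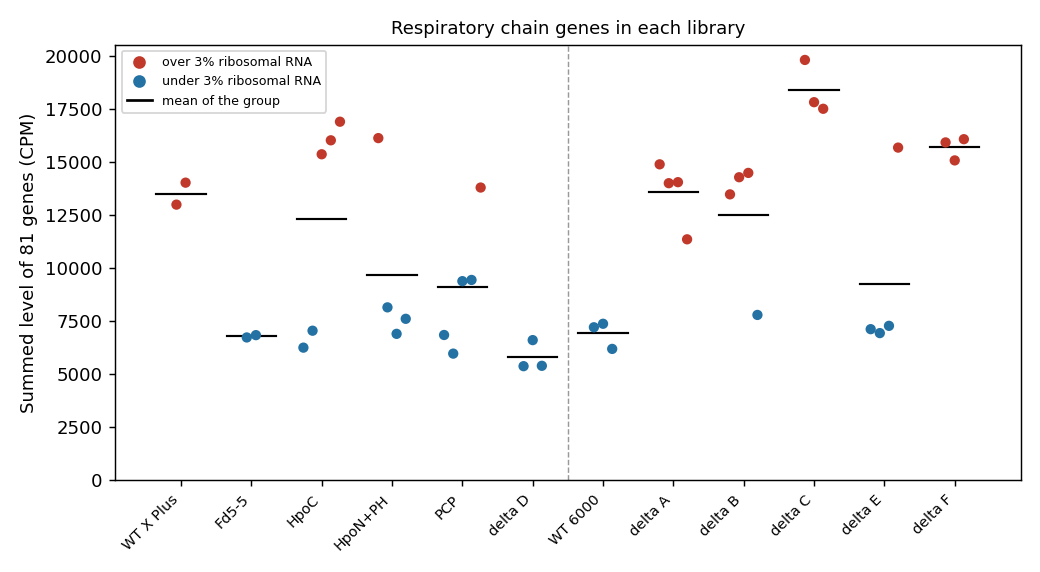
Summed level of the 81 respiratory chain genes in CPM, 1 point for each library by group, coloured by ribosomal RNA class. The 21 high-class libraries sit at 11356 to 19819 CPM and the 21 low-class libraries at 5371 to 9439.

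Each complex shared this split. Complex V, which carries most of the summed level, was at 6419.6 to 11172 CPM in the high class and 2907 to 5047 in the low class. Complex I was at 2385 to 4091 against 1189.9 to 2194 CPM, and complex IV at 1003 to 2146 against 336 to 785 CPM. Complexes II and III overlapped, at 579 to 903 against 417 to 625 CPM and at 703 to 1508 against 503 to 847 CPM.

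At the level of single genes, 36 of the 62 expressed members were higher in every high-class library than in every low-class one, and 0 were lower in every one. Among all 7230 genes with a median count over 100, 16.2% were higher without overlap and 17.3% lower without overlap. All 62 members had the higher median in the high class. The median log2 ratio of the class medians was 1.19 for complex I, 1.06 for complex II, 1.26 for complex III, 1.66 for complex IV and 1.14 for complex V. The largest were 2.11 for ATPsynG, a subunit of the membrane part of the ATP synthase, 2.04 for UQCR-14 and 1.98 for UQCR-Q. ATPsynG was at 134 to 293 CPM in the high class and 30.0 to 91.6 in the low class. The smallest was that of ND-75, the largest subunit of complex I's NADH-binding arm, with a log2 ratio of 0.03, at 123 to 204 against 150 to 218 CPM. SdhA stood next at 0.24.

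Transcript length went with the class in the genome at large and among these genes. The 62 expressed members are short: their median longest transcript is 813 bases and 69.4% are under 1000 bases, against 12.9% of 7171 genes with a median count over 100 and a known length. Across those 7171 genes the log2 ratio of high to low class had a Spearman rank correlation of -0.81 with length, and across the 62 members it was -0.46. These are descriptions across genes that share the same libraries. The 43 members under 1000 bases had a median log2 ratio of 1.34 and the 19 longer ones 0.96. All 924 genes under 1000 bases had a median of 1.13, and the 6247 longer genes had 0.03. The part of transcript length, ribosomal RNA share and library handling in the values below was not tested, beyond the fits in which class or length is a term.

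**Figure D2:**
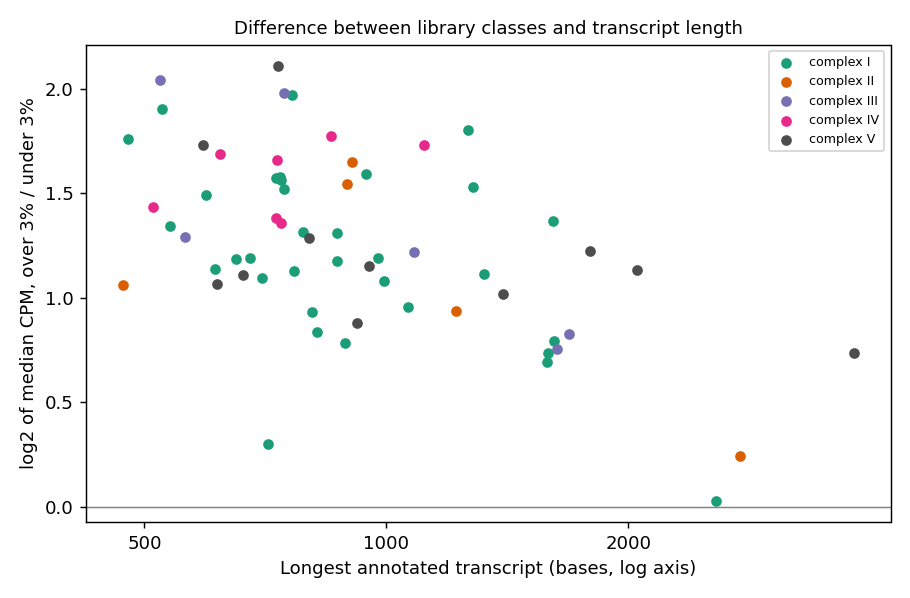
Log2 ratio of the median level in the 21 high-class libraries over that in the 21 low-class libraries against longest transcript length in bases (log axis), for the 62 expressed members, coloured by complex. Short transcripts sit higher. The members of 1000 bases or more have a median of 0.96, where all genes of that length, which are not drawn, have 0.03.

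The 2 wild types differed from each other across the chain. Of the 62 members, 54 were higher in both X Plus libraries than in all 3 libraries of the 6000, 5 were lower in both and 3 overlapped, with a median ratio of 2.23. Among all genes with a median count over 100, 43.2% were higher and 36.1% lower, with a median ratio of 1.07. UQCR-Q, for example, was at 212 and 253 CPM on the X Plus and at 49.9, 51.0 and 42.4 on the 6000. The 5 members lower on the X Plus were UQCR-C2 at a ratio of 0.0928, ATPsynB at 0.119, ND-18 at 0.144, UQCR-C1 at 0.261 and ND-75 at 0.705. Sequencer, ribosomal RNA class and any preparation date cannot be told apart between the wild types. Levels were therefore not tested across sequencers.

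Against the X Plus wild type, 4 members rose and 0 fell in each of Fd5-5, HpoC, HpoN+PH and PCP, of 69 tested. Of the 10775 genes tested, edgeR's quasi-likelihood test called 4.47% in Fd5-5 (3.7% upward, 0.77% downward), 3.82% in HpoC (3.04%, 0.78%), 4.84% in HpoN+PH (3.76%, 1.09%) and 3.61% in PCP (3.53%, 0.0835%), at an adjusted p under 0.05. The genes that rose were ND-18, of the NADH-binding arm of complex I, UQCR-C1 and UQCR-C2, the core proteins of complex III, and ATPsynB, of the peripheral stalk of the ATP synthase. They also rose in delta D. At an unadjusted p under 0.05, 26 of the 69 members were lower in Fd5-5, 2 in HpoC, 4 in HpoN+PH and 3 in PCP, where 15.1%, 5.21%, 10.9% and 7.98% of all genes were lower.

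ATPsynB (FBgn0019644, dm6 chromosome 3L, 9729999 to 9731224, plus strand) was at 19.1 and 22.2 CPM in wild type, 167 and 152 in Fd5-5, 144, 176, 344, 381 and 387 in HpoC, and 355, 198, 159.9 and 184 in HpoN+PH. It was at 149, 135, 278, 282 and 33.9 CPM in PCP and at 116, 164 and 123 in delta D. Every mutant library stood above both wild-type libraries, and PCP 5, the high-class PCP library, was the nearest to them. ATPsynB rose by a log2 fold change of 2.94 in Fd5-5 (adjusted p 0.0244), 3.79 in HpoC (0.00288), 3.43 in HpoN+PH (0.00590), 3.08 in PCP (0.0114) and 2.69 in delta D (0.0148).

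UQCR-C2 (FBgn0250814, dm6 chromosome 3L, 16584124 to 16586111, plus strand) was at 16.8 and 15.3 CPM in wild type, 167 and 179 in Fd5-5, 138, 175, 331, 345 and 358 in HpoC, and 352, 216, 191 and 189 in HpoN+PH. It was at 182, 168, 233, 228 and 96.5 CPM in PCP and at 134, 141 and 146 in delta D. No mutant library overlapped the wild type. UQCR-C2 rose by 3.43 in Fd5-5 (adjusted p 0.000398), 4.07 in HpoC (5.96e-05), 3.88 in HpoN+PH (0.000105), 3.49 in PCP (0.000208) and 3.12 in delta D (0.000349).

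ND-18 (FBgn0031021, dm6 chromosome X, 19492421 to 19493337, plus strand) was at 7.08 and 5.01 CPM in wild type, 44.5 and 44.2 in Fd5-5, 35.03, 41.1, 93.7, 101 and 113 in HpoC, and 95.5, 47.3, 41.7 and 44.4 in HpoN+PH. It was at 41.8, 35.6, 62.6, 58.1 and 25.2 CPM in PCP and at 27.8, 37.5 and 27.9 in delta D. Again the wild-type libraries were below all others of the X Plus. On the log2 scale ND-18 rose by 2.87 in Fd5-5 (adjusted p 0.00621), 3.65 in HpoC (0.000542), 3.23 in HpoN+PH (0.00154), 2.88 in PCP (0.00342) and 2.35 in delta D (0.00838).

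UQCR-C1 (FBgn0038271, dm6 chromosome 3R, 14890231 to 14892387, plus strand) was the least changed of the 4. It was at 104 and 73.1 CPM in wild type, 273 and 292 in Fd5-5, 258, 271, 468, 496 and 529.7 in HpoC, 520.3, 303, 259 and 277 in HpoN+PH, 264, 259.6, 389, 378 and 291 in PCP, and 248, 294 and 253 in delta D. The groups did not overlap. UQCR-C1 rose by 1.67 in Fd5-5 (adjusted p 0.0173), 2.18 in HpoC (0.00104), 1.93 in HpoN+PH (0.00321), 1.83 in PCP (0.00445) and 1.57 in delta D (0.00928).

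These rises rest on the 2 wild-type libraries of the X Plus that all 5 comparisons share. In the 6000 wild type the same genes stood near the mutant levels, at 150.3 to 197 CPM for ATPsynB, 147 to 194 for UQCR-C2, 35.5 to 47.2 for ND-18 and 269 to 403 for UQCR-C1. Low levels of all 4 also occurred in delta A 1 to 3, on the 6000, where ATPsynB was at 17.8, 17.6 and 20.9 CPM, while delta A 4 was at 247. UQCR-C2 was at 9.10, 12.9 and 28.1 CPM in delta A 1 to 3 and at 208 in delta A 4. Differentiated muscle markers were at 841 to 1506 CPM for the X Plus wild type and 429 to 702 in delta A, delta A 4 included. They also reached 626 CPM in PCP and 469 in delta C, and delta C had ATPsynB at 306 to 417 CPM. The part of muscle markers in the result was not tested. ND-18 overlaps CG12204 and UQCR-C2 overlaps Syx8, both on the opposite strand, and the strand setting of the counting is not given in the sources used here, so their counts may include reads of the neighbour. UQCR-C2 passed in all 5 comparisons with either wild-type library left out, and ATPsynB passed in none of them. Without wild type 1, the number of members called was 1 in Fd5-5, 3 in HpoC, 3 in HpoN+PH and 2 in PCP, and without wild type 2 it was 1, 2, 1 and 1. With either Fd5-5 library left out, that comparison made 2 calls.

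**Figure D3:**
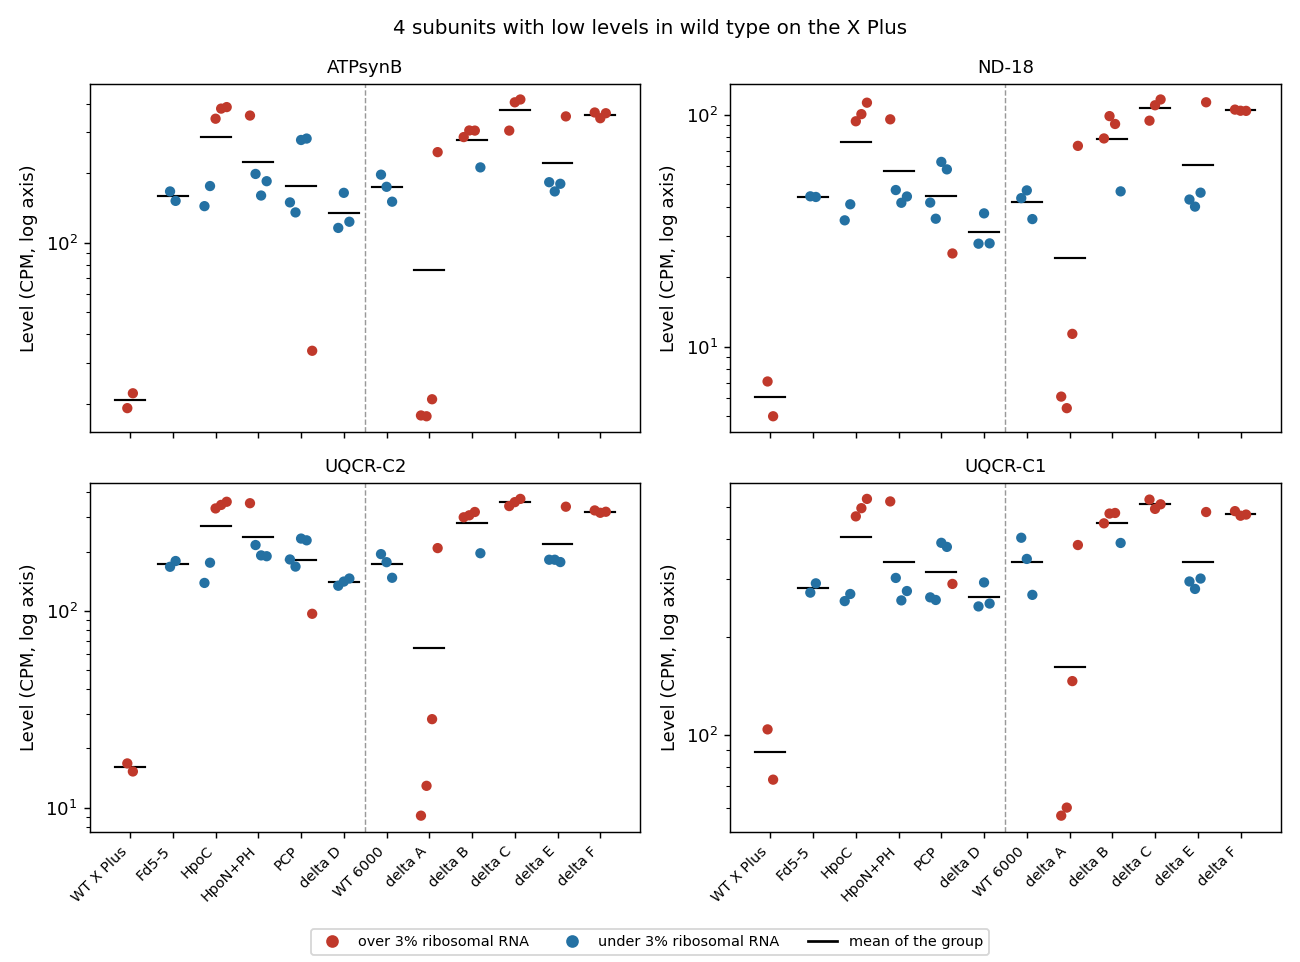
Level of ATPsynB, UQCR-C2, ND-18 and UQCR-C1 in CPM (log axis), 1 point for each library by group, coloured by ribosomal RNA class. The X Plus wild type and delta A 1 to 3 sit lowest, with ATPsynB at 17.6 to 22.2 CPM, while the 6000 wild type is at 150.3 to 197.

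The median of the chain lay below 0 in every X Plus comparison. The median log2 fold change over the 69 members was -1.09 in Fd5-5, -0.15 in HpoC, -0.53 in HpoN+PH, -0.61 in PCP and -1.42 in delta D, while the median of all genes tested lay within 0.05 of 0. In Fd5-5, ND-MLRQ, an accessory subunit of complex I, was at 23.0 and 19.8 CPM against 94.3 and 103 in wild type, and did not pass (log2 fold change -2.21, adjusted p 0.0908). With library class as a term, 4 members rose and 0 fell in Fd5-5, HpoN+PH and PCP, where 3.64%, 6.53% and 3.69% of all genes were called. That fit had 5 up and 1 down in HpoC, where 12.3% were called, adding SdhB (0.57, adjusted p 0.0476) and UQCR-11 (-0.77, adjusted p 0.0464) to the 4 subunits. Fd5-5 and delta D are the X Plus labels whose libraries were all in the low class, opposite to their wild type.

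In delta D, 33 members fell and 5 rose of 69, where 26.5% of all genes were called, 15.3% downward and 11.2% upward. By complex, 16 members of complex I fell, with a median log2 fold change of -1.23 over the tested members, 1 of complex II (-1.09), 4 of complex III (-2.05), 4 of complex IV (-1.72) and 8 of complex V (-1.41). Beside the 4 subunits above, the member that rose was ND-51L2, which was at 0 and 0.0513 CPM in wild type and 0.250 to 0.420 in delta D, a handful of reads.

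Among the members that fell in delta D, ND-MLRQ was at 94.3 and 103 CPM in wild type and at 16.5, 22.8 and 16.9 in delta D. The change was -2.41 ± 0.64 (SE) on the log2 scale, with an adjusted p of 0.0186. UQCR-11, a small subunit of complex III, went from 278 and 299 CPM to 68.7, 89.8 and 68.9 (-1.94 ± 0.47, adjusted p 0.0123). In both genes the wild type stood several-fold above every mutant library.

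In complex IV, COX5B was at 185 and 211 CPM in wild type and at 41.8, 58.7 and 44.2 in delta D, a change of -2.04 ± 0.53 (adjusted p 0.0169). COX7C changed by -2.42 (adjusted p 0.0247), from 94.4 and 109 CPM to 15.3, 26.0 and 16.2. Both genes were separated without overlap, which was a condition of their choice and held for 64 of the 69 members tested in delta D. In complex V, ATPsynG was at 185 and 218 CPM in wild type and at 30.0, 44.1 and 31.3 in delta D (-2.53, adjusted p 0.0294), and ATPsynCF6, the coupling factor of the stalk, fell by 1.69 (adjusted p 0.0141). ATPsynC went from 4113 and 4275 CPM to 1532, 1712 and 1470.2 (-1.42, adjusted p 0.0398). In complex II the assembly factor Sdhaf3 fell, from 11.3 and 11.8 CPM to 2.13, 3.16 and 2.34 (-2.18, adjusted p 0.0115), while SdhA was at 252 and 293 CPM against 267, 300.0 and 281 (0.04, adjusted p 0.875).

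The downward calls in delta D did not hold with library class as a term. That fit made 4 calls, all upward and on ND-18, UQCR-C1, UQCR-C2 and ATPsynB, with 7.69% of all genes called and a median over the members of -0.22. In a fit without the 6 libraries that went against the rest of their label, 55 members fell and 7 rose in delta D, where 63.9% of all genes were called. The same fit had 51 down and 6 up in Fd5-5, 50 down and 7 up in HpoN+PH, 47 down and 6 up in PCP, and 3 down and 7 up in HpoC, where 57%, 58.8%, 57.6% and 27.9% of all genes were called. There HpoC had only high-class libraries, like its wild type, and the other labels only low-class ones. In delta E it had 3 down, namely ND-15, ND-PDSW and SdhA, and 0 up, where 15.8% were called. Leaving out 1 library also moved the count in delta D, from 38 to 2 or 1 without wild type 1 or 2 and to 6, 13 and 6 without delta D 1, 2 and 3.

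On the 6000 most of the 67 members tested rose in 4 of the 5 mutants. In delta A, 53 members rose and 2 fell of 67, where 58.4% of all genes were called, 30.4% upward and 28.1% downward. In delta B, 44 rose and 0 fell, where 32.2% were called, 19.4% upward and 12.8% downward. In delta C, 56 rose and 1 fell, where 65.8% were called, 33.8% upward and 32% downward, and in delta F, 54 rose and 2 fell, where 56.7% were called, 28.2% upward and 28.5% downward. In delta E 0 members passed in either direction by edgeR, where 5.13% of all genes were called, 2.88% upward and 2.24% downward, and 0 by DESeq2, where 10.7% were called. At an unadjusted p under 0.05 by edgeR, 13 members were higher and 1 was lower in delta E, where 12.6% of all genes were higher and 8.34% lower. The median log2 fold change over the 67 members was 1.03 in delta A, 0.85 in delta B, 1.43 in delta C, 0.45 in delta E and 1.15 in delta F. The count in delta B rested on single libraries: it was 13, 0 and 0 without wild type 1, 2 and 3, where 17.4%, 1.02% and 2.02% of all genes were called. It was 11, 2 and 1 without delta B 1, 2 and 3, where 11.1%, 6.15% and 5.52% were called, and 53 without delta B 4, its low-class library, where 56.6% were called. The 5 comparisons share 3 wild-type libraries, all of the low ribosomal RNA class.

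**Figure D4:**
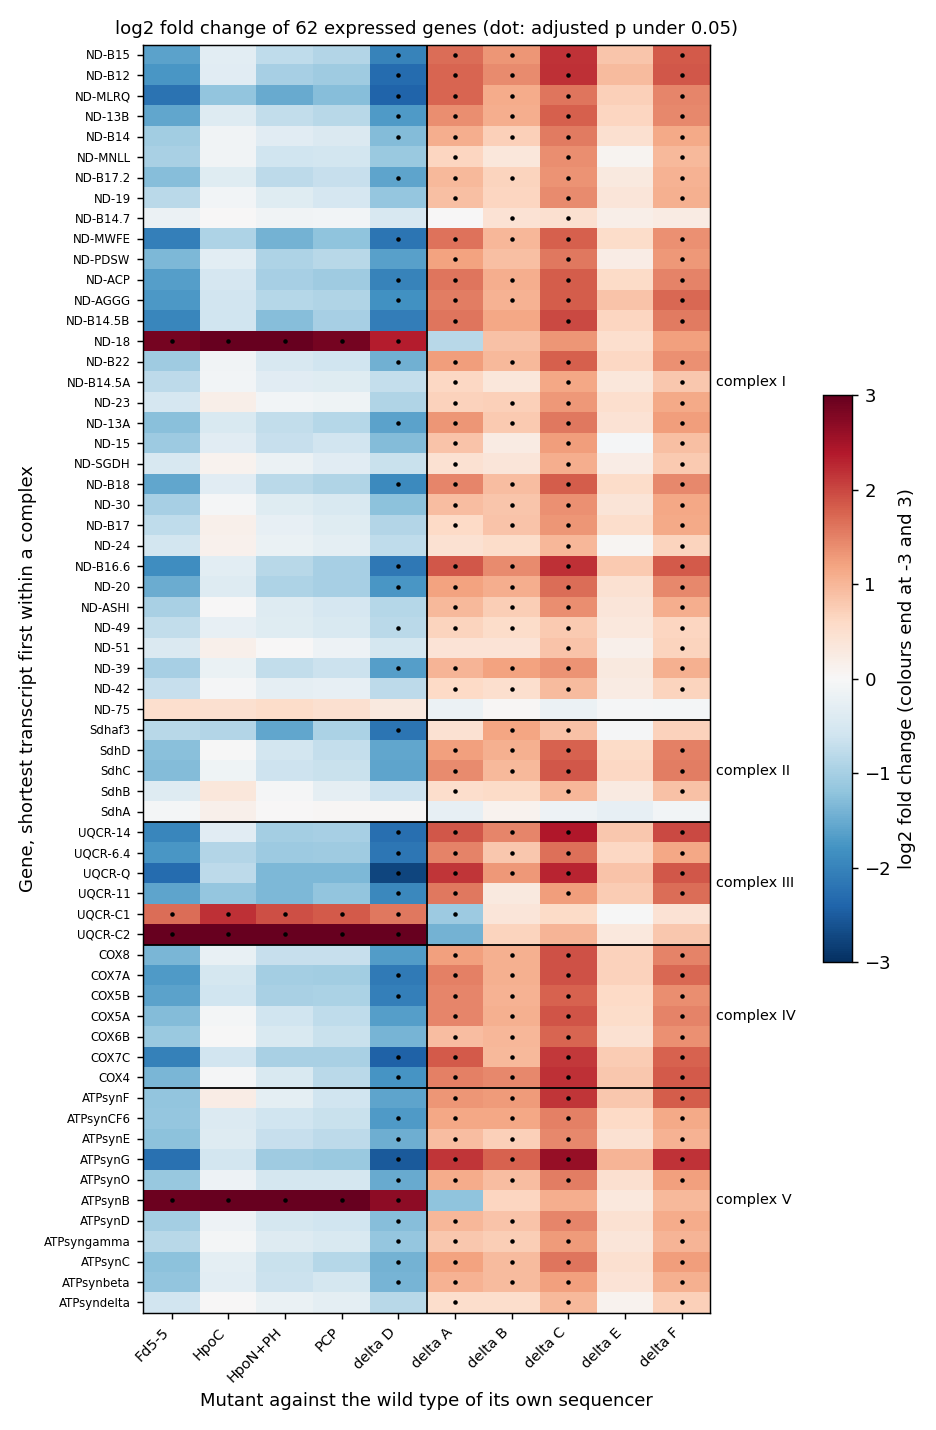
Log2 fold change of each of the 62 expressed members (1 line each, grouped by complex) in the 10 comparisons, each mutant against wild type of its own sequencer; a dot marks an adjusted p under 0.05. ND-18, UQCR-C1, UQCR-C2 and ATPsynB stand out as raised in the X Plus comparisons, and most members are raised in delta A, delta B, delta C and delta F.

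In complex I, 28 of 36 tested members rose in delta A, 22 in delta B, 31 in delta C and 30 in delta F, with medians of 0.95, 0.76, 1.38 and 1.15 on the log2 scale. ND-B12, an accessory subunit, was at 13.3, 12.1 and 10.4 CPM in wild type, 48.6, 42.5, 47.7 and 25.5 in delta A, 35.6, 41.1, 38.9 and 14.2 in delta B, 61.3, 55.8 and 49.8 in delta C, and 44.9, 42.04 and 49.7 in delta F. In delta E it was at 17.6, 15.0, 16.6 and 45.4 CPM. Every mutant library was above the wild type, with delta B 4 and delta E 1 to 3, the low-class libraries of those labels, nearest to it. Its fold change, on the log2 scale, was 1.74 ± 0.37 in delta A (adjusted p 0.00192), 1.42 ± 0.37 in delta B (0.0171), 2.19 ± 0.39 in delta C (0.000291), 0.96 ± 0.36 in delta E (0.143) and 1.86 ± 0.39 in delta F (0.00278).

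The members of complex I with the smallest p were ND-MLRQ in delta A (1.75, adjusted p 0.00143), ND-B12 in delta B, ND-B22 in delta C (1.801, adjusted p 0.000184) and ND-23, a Q-module iron-sulfur subunit, in delta F (1.15, adjusted p 0.00271). ND-75 did not pass in any comparison on the 6000. It was at 213, 182 and 149.7 CPM in wild type, 158, 143, 170.5 and 186 in delta A and 173, 156 and 164 in delta C, overlapping in both (-0.18, adjusted p 0.207, and -0.17, adjusted p 0.250). The duplicate ND-51L2 passed downward in delta C and delta F, at 0.142 to 0.770 CPM in wild type against at most 0.107 in the mutants, and no fold is given for so few reads.

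In complex II, 3 of 6 tested members rose in delta A, 3 in delta B, 4 in delta C and 3 in delta F. SdhC, a membrane anchor of succinate dehydrogenase, was at 47.6, 51.5 and 37.1 CPM in wild type, 143, 119, 138 and 98.4 in delta A, 99.0, 111, 99.6 and 51.9 in delta B, 202, 154 and 148 in delta C, 47.4, 43.7, 49.9 and 142 in delta E, and 139, 137 and 140.4 in delta F. Delta A, delta C and delta F stood clear of the wild type, and delta B 4 and delta E 1 to 3 lay at or beside its range. SdhC differed by 1.42 (adjusted p 0.00334), 0.96 (0.0390), 1.86 (0.000432), 0.61 (0.302) and 1.54 (0.00331) in delta A, B, C, E and F. SdhD, the other anchor, rose by 1.07 in delta B (adjusted p 0.0297).

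The catalytic flavoprotein SdhA did not pass in any comparison on the 6000. It was at 401, 321 and 282 CPM in wild type and at 318, 299 and 301 in delta C, 356, 362, 365 and 385 in delta B, and 339.7, 325 and 330.1 in delta F. All overlapped, with log2 fold changes of -0.16 (adjusted p 0.255), 0.11 (0.436) and -0.08 (0.574). The duplicate SdhBL passed downward in delta A and delta F, where it was listed at 0 in every library, against 0.142 to 0.385 CPM in wild type.

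In complex III, 4 of 6 tested members rose in delta A, 3 in delta B, 4 in delta C and 4 in delta F. UQCR-Q was at 49.9, 51.0 and 42.4 CPM in wild type, 249.9, 238, 227 and 148 in delta A, 123, 151, 147 and 60.3 in delta B, 265, 228 and 216 in delta C, 52.1, 46.4, 55.2 and 197 in delta E, and 191, 166 and 188 in delta F. The groups other than delta E did not overlap with the wild type. UQCR-Q differed by 2.14 ± 0.42 in delta A (adjusted p 0.00142), 1.31 in delta B (0.0277), 2.28 in delta C (0.000426), 0.85 in delta E (0.239) and 1.86 in delta F (0.00345). UQCR-14 rose by 1.47 in delta B (adjusted p 0.0225), 2.40 in delta C (0.000399) and 1.99 in delta F (0.00322).

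The core proteins of complex III did not pass upward in any of the 5 comparisons on the 6000. UQCR-C1 was at 403, 347 and 269 CPM in the 6000 wild type, 446, 478, 479.6 and 388 in delta B, 527, 494 and 509.8 in delta C, and 486, 470.4 and 474 in delta F, with log2 fold changes of 0.37 (adjusted p 0.520), 0.56 (0.317) and 0.42 (0.471). In delta A it was at 56.7, 60.0, 147 and 383 CPM and fell by 1.09 (adjusted p 0.0473), with delta A 4 inside the wild-type range and the other libraries below it. UQCR-C2 was at 340.3, 356 and 370.1 CPM in delta C against 194, 177 and 147, a change of 1.02 ± 0.76 (adjusted p 0.242). The groups did not overlap in that comparison.

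In complex IV, all 7 tested members rose in delta A, delta B, delta C and delta F, with median log2 fold changes of 1.48, 1.07, 1.90 and 1.49. COX7C was at 24.4, 28.4 and 25.0 CPM in wild type, 111, 107, 102 and 61.2 in delta A, 54.1, 61.7, 59.9 and 32.9 in delta B, 122, 112 and 108 in delta C, 28.4, 29.6, 30.8 and 91.8 in delta E, and 94.7, 85.1 and 96.9 in delta F. No mutant library was below the highest wild-type one, and delta E 1 to 3 and delta B 4 stood closest. COX7C differed by 1.84 ± 0.35 in delta A (adjusted p 0.00115), 0.98 in delta B (0.0367), 2.11 ± 0.36 in delta C (0.000238), 0.77 in delta E (0.196) and 1.76 ± 0.36 in delta F (0.00271). COX4, which in mammals is a regulatory subunit, rose by 1.43 in delta B (adjusted p 0.0192) and by 1.85 in delta F (0.00306).

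In complex V, 11 of 12 tested members rose in delta A, 9 in delta B, 10 in delta C and 10 in delta F, with medians of 1.07, 0.88, 1.45 and 1.10. ATPsynG was at 45.2, 47.4 and 34.99 CPM in wild type, 218, 209, 209.8 and 134 in delta A, 168, 178, 182 and 59.0 in delta B, 293, 254 and 251 in delta C, 50.5, 47.7, 48.7 and 204 in delta E, and 202, 192 and 204 in delta F. The 3 delta C libraries were above every other, and delta E 1 to 3 lay just above the wild type. The log2 fold change was 2.14 ± 0.46 in delta A (adjusted p 0.00204), 1.76 in delta B (0.0171), 2.62 in delta C (0.000355), 1.01 in delta E (0.2005) and 2.16 ± 0.48 in delta F (0.00306).

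The most abundant member, ATPsynC, was at 1610.5, 1872 and 1649 CPM in wild type, 5779, 5038 and 4981 in delta C, and 1832, 1790.1, 1923 and 4092 in delta E. In delta C the change was 1.60 ± 0.32 (adjusted p 0.000508), and in delta E it was 0.47 ± 0.29 (adjusted p 0.370), with 3 of its 4 libraries inside or just above the wild-type range. The members of complex V with the smallest p were ATPsynCF6 in delta B (1.15, adjusted p 0.0101) and ATPsynE in delta C (1.43, adjusted p 0.000234), and ATPsynO, the stalk subunit known as the oligomycin sensitivity protein, rose by 1.24 in delta F (0.00313).

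The ribosomal RNA class of the libraries ran through these comparisons, since the 6000 wild type was in the low class and delta A, delta C and delta F wholly in the high class. For those 3 mutants class and genotype are separated by no library of their own. The class effect was estimated within each sequencer, from the labels that held both classes. On the 6000 it therefore rests on delta B and delta E, where only delta B 4 and delta E 4 went against the rest of their label. PCP 5, HpoN+PH 1 and HpoC 1 and 2 served the X Plus fit alone. With class as a term, 0 members passed in delta A, delta B, delta E and delta F, where 4.22%, 0.106%, 9.36% and 0.281% of all genes were called. At an unadjusted p under 0.05 that fit had 4 members up and 4 down in delta A, where 11.9% of all genes were up and 10.4% down. It had 3 up and 0 down in delta B (4.95% and 4.51% of all genes), 5 up and 1 down in delta E (11.8% and 11.4%) and 2 up and 0 down in delta F (4.95% and 5.63%).

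Delta C was the exception, with 18 members up and 0 down in the fit with class as a term, where 13% of all genes were called, 5.72% upward. They were 8 members of complex I, 2 of complex III, 4 of complex IV and 4 of complex V, and the median over all 67 was 0.50. COX7C rose by 0.91 ± 0.24 (adjusted p 0.0228), ATPsynG by 0.84 (0.0162), ND-B22 by 0.78 (0.00849), UQCR-14 by 0.75 (0.0271) and ATPsynD by 0.55 (0.0258). Within the high class the libraries of delta C had the highest share of counts on the 81 genes, 1.61% to 1.90%, beside ribosomal RNA shares of 5.11% to 8.04%, the 3 lowest of that class. The difference between delta C and the other mutants was not tested here.

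**Figure D5:**
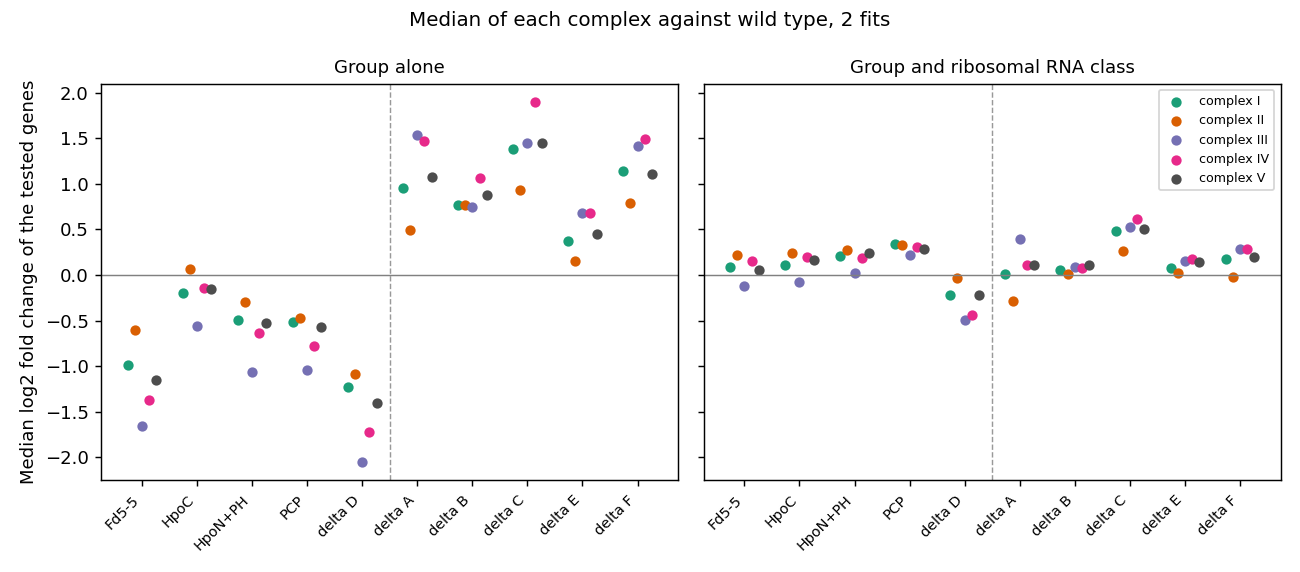
Median log2 fold change of the tested members of each complex in the 10 comparisons, without and with library class as a term. With the term most medians lie nearer 0, and delta C, at 0.50 over all its members, stays above it.

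The labels that held both classes allow a comparison with the wild type in its own class. HpoC 3 to 5 against the X Plus wild type, all high class, had 34 members up and 6 down of 65, where 46.4% of all genes were called, with a median of 0.27. ND-18, UQCR-C2, UQCR-C1 and ATPsynB stood far above the rest at 4.10, 4.46, 2.53 and 4.21 on the log2 scale, and the next were ATPsynF at 0.77 and SdhB at 0.71 (adjusted p 0.000359 and 0.000149). UQCR-11 fell by 0.88 and ND-MLRQ by 0.72 (adjusted p 4.09e-05 and 0.000115). UQCR-11 was at 158, 148 and 153 CPM in those libraries against 278 and 299 in wild type, with no overlap. That fit had 3 residual degrees of freedom.

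HpoN+PH 1 alone gave 25 up and 4 down, where 35.5% of all genes were called, and PCP 5 alone gave 4 up and 0 down, where 2.2% were called. For these single libraries the spread was taken from the other groups, so each is assumed to vary like them. Delta B 4 gave 0 calls, where 0% of all genes were called, and 13 members of 68 were higher at an unadjusted p under 0.05, where 3.71% of all genes were. Delta E 1 to 3 gave 2 members that fell, where 14.4% of all genes were called. They were ND-PDSW, at 32.4, 28.7 and 32.5 CPM against 47.4, 46.7 and 37.0 (-0.50, adjusted p 0.0303), and ND-15, at 22.9, 20.5 and 23.6 CPM against 33.5, 37.4 and 28.7 (-0.59, adjusted p 0.0220). The median over the members was 0.21 in delta B 4 and 0.05 in delta E 1 to 3. Fd5-5, delta D, delta A, delta C and delta F had no library in the class of their wild type.

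ND-24 (FBgn0030853, dm6 chromosome X, 17632089 to 17633509, plus strand) encodes the subunit that the mitochondrial fragment of Fat is known to bind, at a site of the NADH-binding arm of complex I. On the X Plus it was at 75.4 and 88.3 CPM in wild type, 54.7 and 58.0 in Fd5-5, 53.4, 58.4, 112, 117 and 111 in HpoC, 116, 63.1, 50.5 and 56.7 in HpoN+PH, 47.8, 44.7, 83.7, 81.4 and 79.5 in PCP, and 43.1, 60.8 and 42.3 in delta D. Fd5-5 and delta D lay below the wild type, PCP lay below and within its range, and HpoC and HpoN+PH had libraries on both sides of it. The log2 fold change was -0.54 ± 0.43 in Fd5-5 (adjusted p 0.346), 0.13 in HpoC (0.913), -0.20 in HpoN+PH (0.718), -0.29 in PCP (0.585) and -0.75 in delta D (0.132), so that none passed.

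On the 6000, ND-24 was at 71.1, 66.5 and 52.0 CPM in wild type, 101, 86.2, 97.8 and 72.3 in delta A, 98.5, 102, 106 and 71.9 in delta B, 144, 121 and 119 in delta C, 49.999, 52.7, 54.2 and 110.2 in delta E, and 112, 99.7 and 107 in delta F. It rose in delta C (0.99 ± 0.24, adjusted p 0.00168) and in delta F (0.68 ± 0.24, adjusted p 0.0215), and did not pass in delta A (0.46, 0.0804), delta B (0.56, 0.0600) or delta E (0.06, 0.916). With class as a term the value in delta C was 0.24 and did not pass. ND-24L, its duplicate, had 0 to 3 counts in any library.

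Genes that work with the chain but lie outside the naming rule were read from lists of 11 further subunits, 24 genes of the tricarboxylic acid cycle, 16 mitochondrial carriers and fusion genes and 14 regulators. Of the 9 further subunits tested in each, 8 rose and 0 fell in delta A (58.4% of all genes called) and 7 and 0 in delta B (32.2%). It was 8 and 0 in delta C (65.8%), 0 and 0 in delta E (5.13%) and 8 and 0 in delta F (56.7%). Of the 8 tested in delta D, 0 rose and 5 fell (26.5%). In delta C, cytochrome c (Cyt-c-p) rose by 2.14, the Rieske protein RFeSP by 1.86, levy, a subunit of complex IV, by 2.11, sun, the epsilon subunit of the ATP synthase, by 2.22, and blw, its alpha subunit, by 0.88. With class as a term, 5 of the further subunits still rose in delta C (13% of all genes called) and 1 rose in delta E (9.36%). In delta A, delta B, delta F and delta D 0 passed in that fit (4.22%, 0.106%, 0.281% and 7.69%).

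Of the 16 cycle genes tested on each sequencer, 2 rose and 0 fell in each of Fd5-5, HpoC, HpoN+PH and PCP. There 4.47%, 3.82%, 4.84% and 3.61% of all genes were called. The 2 genes were muc, the E2 subunit of pyruvate dehydrogenase, and CG5214, that of oxoglutarate dehydrogenase. muc was at 7.38 to 7.39 CPM for the X Plus wild type, 93.1 to 95.6 in Fd5-5, 91.3 to 155 in HpoC, 128 to 149.6 in HpoN+PH, 99.0 to 105 in delta D, 7.31 to 122 in PCP, and 6.08 to 118 in delta A. The 6000 wild type was at 104 to 106 CPM. In Fd5-5 its log2 fold change was 3.67 (adjusted p 0.00834). The low levels thus lay in the groups where ATPsynB and UQCR-C2 were low, and PCP also held one. On the 6000, 8 cycle genes rose and 1 fell in delta A (58.4% of all genes called), 7 and 0 in delta B (32.2%) and 10 and 2 in delta C (65.8%). In delta F it was 9 and 2 (56.7%) and in delta E 0 and 0 (5.13%). On the X Plus delta D had 2 up and 3 down (26.5%). With class as a term 0 cycle genes passed in delta A, delta B, delta E and delta F (4.22%, 0.106%, 9.36% and 0.281%). In that fit 4 rose and 1 fell in delta C (13%), and 2 and 1 in delta D (7.69%).

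Of the 15 carriers and fusion genes tested, 1 fell in each of Fd5-5 (Ant2), HpoC (Mpcp1) and HpoN+PH (park), where 4.47%, 3.82% and 4.84% of all genes were called. In delta D 8 fell (26.5%). In delta A 7 rose and 3 fell (58.4%), in delta B 5 and 0 (32.2%), in delta C 10 and 4 (65.8%) and in delta F 9 and 4 (56.7%). With class as a term 0 passed in delta A, delta B, delta F and delta D (4.22%, 0.106%, 0.281% and 7.69%). In that fit 3 rose and 2 fell in delta C (13%), and 1 rose in delta E (9.36%). The ADP/ATP carrier Ant2 fell by 4.11 on the log2 scale in Fd5-5 (adjusted p 0.0244) and rose by 2.96 in delta B (0.0103). Among the 12 regulators tested, 3 rose and 1 fell in delta D (26.5% of all genes called), 4 and 4 in delta A (58.4%) and 1 and 3 in delta B (32.2%). In delta C 5 rose and 5 fell (65.8%), in delta E 0 and 1 (5.13%) and in delta F 5 and 5 (56.7%). TFAM, which packages the mitochondrial genome, rose in delta A, B, C and F by 0.98, 0.82, 1.40 and 1.202, and srl, the fly PGC-1, fell by 1.16, 0.92, 1.91 and 1.46. With class as a term 0 regulators, and so not TFAM, rose in these 4 mutants. In that fit 1, 0, 2 and 0 regulators fell in them, where 4.22%, 0.106%, 13% and 0.281% of all genes were called. The 1 regulator that passed in Fd5-5, HpoC, HpoN+PH and PCP was yki, the Hippo pathway's transcriptional coactivator, which rose by 1.62, 2.22, 1.92 and 1.69. There 4.47%, 3.82%, 4.84% and 3.61% of all genes were called. All 4 comparisons share the 2 X Plus wild-type libraries in which ND-18, UQCR-C1, UQCR-C2 and ATPsynB were low. What lies behind the value for yki was not tested.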

How the data were processed

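RNA was extracted from imaginal wing discs with ReliaPrep, and libraries were made from 10 ng of total RNA with 12 to 15 PCR cycles and read as pairs of 150 bases, per the labels' protocols. The values deposited are estimated counts for each gene, not normalized, from Salmon 1.80 after Trimmomatic 0.33 and FastQC 0.10, against dm6, per the submitters' processing notes, which also name edgeR. All 42 columns were matched to samples by genotype, sequencer and replicate number. Counts were rounded. Levels are CPM with TMM factors over all libraries. Depth was 19538208 to 48392354 counts, and PCR copies cannot be told from molecules, so errors cover what these libraries show. No 2 libraries of a group agreed within sampling noise.

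Each sequencer had 1 edgeR 4.0.16 quasi-likelihood fit in R 4.3.3 (21 libraries, TMM, filterByExpr, 15 residual degrees of freedom, 10775 and 10338 genes), with Benjamini-Hochberg adjustment over all genes tested and a threshold of 0.05. The code of the fits was run on simulated counts with less spread than these libraries and no class effect. That run does not bear on the calls given here. Library class was set at a 3% share of counts on 46 ribosomal RNA genes. Gene positions and longest transcripts came from an annotation of the same genome release and were found for 17083 of 17208 genes. Alternatives were class or transcript length (loess, span 0.3) as a correction, the class of the wild type, DESeq2 1.42.0 and its size factors, no filter, a replicate block, other sets of libraries in the fit, and each library left out. Named members were ND-24, those of smallest p in each complex and comparison that did not overlap, those called against the majority, and those of highest and lowest level per kilobase. A lack of overlap in those of smallest p was thus fixed by the choice. Of 69 members tested, 67 did not overlap in Fd5-5, 64 in delta D and 12 in each of HpoC, HpoN+PH and PCP. Of 67, it was 54 in delta A, 42 in delta B, 64 in delta C, 13 in delta E and 64 in delta F. The share over all genes was not computed. Whether the same replicate numbers across groups mark paired libraries was checked by correlation, and 0 of 30 pairs of groups met the condition. Pairs with the X Plus wild type or Fd5-5, which have 2 libraries each, were too small to meet it. Pairing with those groups was therefore not tested. The members and lists were chosen with earlier results of these data known.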

Additional observations from a re-analysis of the deposited data

Results flagged for a closer look

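Among 36 sets of 4 or 5 libraries examined for a library far from the rest of its group, 15 had one. For 1 set alone chance gives about 1 in 20. The sets are the same groups read for the summed level, ND-24 and 4 subunits already seen to be low in some libraries. They are not independent, so that rate cannot be set against the 15. All 15 lay in delta A 4, delta B 4, delta E 4 and HpoN+PH 1. The summed level of the 81 genes was set apart in delta B 4 at 7788 CPM, in delta E 4 at 15683 and in HpoN+PH 1 at 16131. ND-24 was set apart in delta E 4 at 110.2 CPM. ATPsynB stood apart in delta A 4 at 247 CPM and in delta E 4 at 352. ND-18 stood apart in delta A 4 at 73.4 CPM, in delta E 4 at 113 and in HpoN+PH 1 at 95.5. UQCR-C2 stood apart in delta A 4 at 208 CPM, in delta B 4 at 196, in delta E 4 at 338 and in HpoN+PH 1 at 352. UQCR-C1 stood apart in delta E 4 at 483 CPM and in HpoN+PH 1 at 520.3. Delta B 4, delta E 4 and HpoN+PH 1 are each the library of the other ribosomal RNA class in their label, and delta A 4 is of the same class as its group.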

How the results depend on the processing

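Counts of members called depended on which libraries entered a fit and on the ribosomal RNA class, and the cause was not tested. Each is followed by the share of all genes called in the same fit. With the 2 groups alone they were 60 in Fd5-5 (58.7%), 1 in PCP (0.178%), 62 in delta D (71.5%) and 0 in delta B (0%). In 1 fit of all 42 libraries they were 12 in Fd5-5 (10.6%), 7 in HpoN+PH (9.25%) and 8 in delta B (12.9%), and with DESeq2's Wald test 13 in Fd5-5 (14.7%) and 7 in HpoN+PH (12.7%). Without the 6 libraries of the smaller class of each label they were 57 in Fd5-5 (57%), 10 in HpoC (27.9%), 57 in HpoN+PH (58.8%), 53 in PCP (57.6%), 62 in delta D (63.9%) and 3 in delta E (15.8%). In the class of the wild type they were 40 in HpoC (46.4%), 29 in HpoN+PH (35.5%), 0 in delta B (0%) and 2 in delta E (14.4%). With class as a term they were 4 in delta D (7.69%), 18 in delta C (13%) and 0 in delta A (4.22%), delta B (0.106%) and delta F (0.281%). With transcript length corrected they were 23 in delta D (20.2%), 34 in delta A (42.6%) and 26 in delta B (24.5%), and with no filter 23 in delta D (11.2%). The replicate block, whose numbers were not shown to pair the libraries, gave 7 in PCP (6.68%) and moved no other count by over 1.5 times.

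With 1 library left out, the counts were 1 to 2 in Fd5-5 (0.603% to 2.49% of all genes), 2 to 4 in HpoC (0.917% to 3.71%), 1 to 8 in HpoN+PH (0.725% to 13.1%), 1 to 15 in PCP (0.498% to 19.2%), 1 to 13 in delta D (1.9% to 10.2%), 45 to 59 in delta A (45.3% to 59.5%), 0 to 53 in delta B (1.02% to 56.6%), 56 to 57 in delta C (56.8% to 59.9%), 0 to 1 in delta E (1.36% to 7.59%) and 51 to 55 in delta F (43.4% to 49.4%). HpoC had 2 without wild type 2 (0.917%). HpoN+PH had 1 without wild type 2 (0.725%) and 8 without HpoN+PH 1 (13.1%). PCP had 2 and 1 without wild type 1 and 2 (1.11% and 0.498%) and 15 without PCP 5 (19.2%).

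ND-24 changed sign in several settings. With class as a term its log2 fold change was 0.28 in Fd5-5, 0.35 in HpoN+PH, 0.38 in PCP, 0.075 in delta D, -0.29 in delta A, -0.019 in delta B, -0.20 in delta E and -0.0727 in delta F, the last of which had passed without the term. With length corrected it was 0.086 in HpoN+PH, -0.21 in delta A and -0.19 in delta E. It was -0.13 in HpoC with the replicate block, and in the class of the wild type 0.54 in HpoN+PH and -0.29 in delta E. In delta E it was -0.27 without the smaller class or without delta E replicate 4, and -0.057 without wild type 3, and it ranged from -0.27 to 0.17 over the libraries left out in turn. With class as a term SdhD in delta A was -0.050 and SdhC in delta B -0.030. Of the 90 named calls, 31 kept their direction and threshold with class as a term, 56 no longer passed and 3 changed sign. All 90 were kept with DESeq2, with its size factors and without the smaller class. In the last of these fits each label held libraries of a single class, so class and label could not be told apart. With the 2 groups alone 18 no longer passed, in the fit of all 42 libraries 10 and with length corrected 7. Others no longer passed with single libraries left out or in the class of the wild type.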

Other observations

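PCP 3 and 4 stood above PCP 1 and 2 within the low ribosomal RNA class. The share of counts on the 81 genes was 1.04% in PCP 3 and 4, against 0.740% in PCP 1 and 0.616% in PCP 2. ATPsynbeta was at 1241 and 1232 CPM in PCP 3 and 4 and at 713 and 722 in PCP 1 and 2, while ATPsynC was at 1939.5 and 1972 against 1959 and 1609, so that the catalytic subunit and the c-ring subunit did not stand in the same ratio.

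ATPsynepsilonL was at 7.53, 7.29 and 5.65 CPM in delta A 1 to 3 and at 1.09 in delta A 4, against 0.428, 1.33 and 1.34 in the 6000 wild type, and rose in delta A by 2.32 on the log2 scale (adjusted p 0.00522). In every other library it was at 3.18 CPM or less.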
